A study of Homo sapiens with 6 samples.

Results

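Bone morphogenetic protein (BMP) signalling was described here through 10 genes: the secreted BMP and activin antagonists NOG, GREM1 and FST, the ligands BMP2 and BMP4, the transcription regulators ID1, ID2 and ID3, and the inhibitory SMADs SMAD6 and SMAD7. These are 10 of the 54261 gene symbols in the deposited count table, taken by symbol. They were chosen with earlier results of the same comparison in view, so their values are a description and support nothing further. RNA sequencing covered 6 libraries of the human bladder carcinoma cell line T24. In 3 of them, here called shRNA2, the cells carried a lentivirus with the hairpin that the labels number 2 against MTHFD2, a mitochondrial enzyme of folate metabolism. In the other 3, here called NC, they carried the negative control lentivirus. Both constructs also encode ZsGreen and puromycin resistance, and both cell populations were selected with puromycin. Only a single hairpin is represented, so MTHFD2 loss and any other effect of that hairpin cannot be told apart, and whether the selected cells were a pool or a clone is not given in the sources used here.

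BMP ligands bind type I and type II receptor kinases, which phosphorylate SMAD1, SMAD5 and SMAD9. These enter the nucleus with SMAD4 and raise a characteristic set of transcripts, ID1, ID2 and ID3 among them. ID proteins have a helix-loop-helix domain but no DNA-binding region, and hold E proteins and similar factors off DNA. Noggin, gremlin and follistatin bind ligands outside the cell and keep them from receptors, while SMAD6 and SMAD7 act inside the cell as feedback inhibitors and are themselves raised by the pathway.

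Libraries held 17801990 to 19978392 counts. Levels are given as CPM, counts scaled to a common depth with edgeR's TMM method. A gene with 0 counts may still have been present at up to 3 counts, or 0.149 to 0.171 CPM, a floor that covers counting error only. Nothing in the labels tells whether the 3 replicates of a group came from different cultures, so p-values here reflect only how these libraries spread, which may be technical. MTHFD2 stood at 538, 667 and 686 counts in the shRNA2 libraries and 3241, 3613 and 3417 in the NC libraries, lower as the labels say, with a log2 difference of -2.51 ± 0.13 (SE; edgeR adjusted p = 1.8e-06). Of 12 urothelial and epithelial markers, the keratins KRT8, KRT18 and KRT7 carried most of the signal, while KRT5 held at most 1 count in a library and KRT20 and UPK3A held 0 in every library. These markers differed between the groups: they summed to 989 to 1310 CPM in shRNA2 and 2090 to 2500 CPM in NC libraries. KRT8 (-1.27, edgeR adjusted p = 0.000191) and KRT18 (-0.89, edgeR adjusted p = 0.00157) fell and UPK1A, a uroplakin, rose (1.72, edgeR adjusted p = 0.0141), all as log2 fold changes. UPK1A held only 20, 23 and 37 counts in shRNA2 and 6, 8 and 9 in NC libraries. The uroplakin UPK1B (-0.45, edgeR adjusted p = 0.141) and KRT7 (-0.35, edgeR adjusted p = 0.104) were lower and did not pass. The part of these marker differences in the results below was not tested. Leukocyte markers summed to 1.89 to 3.83 CPM in shRNA2 and 2.81 to 4.05 CPM in NC libraries, and endothelial markers to 1.18 to 1.76 CPM in shRNA2 and 2.18 to 3.07 CPM in NC libraries. Fibroblast markers also differed between the groups and are given beside FST.

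Across all genes, edgeR called 2402 of 13896 at an adjusted p under 0.05, which is 17.3%: 1349 rose, or 9.71%, and 1053 fell, or 7.58%. With trends on GC content and gene length removed, 1441 rose and 2156 fell. Of the 10 genes, 6 passed the filter on low counts and were tested, of which SMAD6 rose and NOG fell. The other 4 tested genes, BMP4, ID1, ID2 and SMAD7, did not pass. GREM1, FST, BMP2 and ID3 held too few counts for the filter. In CPM, the 3 shRNA2 libraries lay wholly above or below the 3 NC libraries for 5 of the 6 tested genes, against 39.1% of all tested genes. In 2 of them (BMP4 and SMAD6) the shRNA2 libraries were higher, as in 20.1% of all genes, and in 3 (NOG, ID2 and SMAD7) lower, as in 19%. Because the genes were picked with this comparison known, nothing is read from these shares.

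Upstream sequence is shown for SMAD6, the gene of the set that rose and whose window held the SMAD palindrome, for ID1, the most abundant of the set and a standard transcript of BMP signalling, and for BMP4 at the outermost of its RefSeq start sites, whose window held the SMAD1/5 motif searched. The sequences are the 250 bases before the RefSeq start site on GRCh38.p14, 5′ to 3′ on the gene's strand, and capitals mark GGCGCC and the SMAD palindrome GTCTAGAC. They lie at chr15:66701986-66702235 (plus strand) for SMAD6, chr20:31605039-31605288 (plus strand) for ID1 and chr14:53955051-53955300 (minus strand) for BMP4.
SMAD6: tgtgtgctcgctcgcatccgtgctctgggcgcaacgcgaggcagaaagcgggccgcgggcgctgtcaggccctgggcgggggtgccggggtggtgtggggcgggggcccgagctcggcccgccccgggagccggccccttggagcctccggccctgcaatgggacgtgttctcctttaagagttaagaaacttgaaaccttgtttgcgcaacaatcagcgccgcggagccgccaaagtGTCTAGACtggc
ID1: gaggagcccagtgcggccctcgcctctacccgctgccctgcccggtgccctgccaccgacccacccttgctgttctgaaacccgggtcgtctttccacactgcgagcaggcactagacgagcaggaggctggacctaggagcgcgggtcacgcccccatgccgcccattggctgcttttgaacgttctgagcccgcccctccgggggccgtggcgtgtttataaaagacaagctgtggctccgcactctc
BMP4: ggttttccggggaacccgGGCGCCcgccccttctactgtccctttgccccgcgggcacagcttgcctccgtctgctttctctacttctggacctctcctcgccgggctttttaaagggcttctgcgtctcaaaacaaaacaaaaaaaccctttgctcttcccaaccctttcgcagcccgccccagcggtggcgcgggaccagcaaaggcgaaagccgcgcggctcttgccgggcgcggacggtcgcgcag
In windows of 300 bases (250 before the start and 50 after), the RefSeq table matched 8 of the 10 genes by symbol, all but NOG and BMP2. GGCGCC, which reads the same on both strands, was found in the outermost windows of BMP4 and GREM1, at 2 places each, and in none of the windows of FST, ID1, ID2, ID3, SMAD6 or SMAD7. It occurs in 19% of 27305 promoters and in 35.9% of those with at least 60% GC. CAGAC, a short SMAD-binding element, searched on both strands, was found in windows of GREM1, BMP4, ID3 and SMAD7, and occurs in 45% of all promoters. GTCTAGAC, which also reads the same on both strands and was added to the search after the sequences were seen, was found once, in the SMAD6 window at 12 bases before the start site. It occurs in 0.201% of all promoters. Because the motif was chosen after the sequences were seen, that share is no measure of how unusual the SMAD6 match is. The shares of all 3 motifs take a single window per gene symbol. GREM1, BMP4 and SMAD7 were each searched in several windows, so the shares are not a like measure for them. None of the 3 motifs contains another. These matches describe letters in a window and say nothing of binding.

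NOG encodes noggin, which binds BMP2, BMP4 and related ligands. It fell in the shRNA2 cells. NOG (GRCh38 chromosome 17, 56593699 to 56595590, plus strand) held 154, 106 and 130 counts in the shRNA2 libraries, against 409, 420 and 459 in the NC libraries. In CPM these are 7.66, 5.34 and 6.96 in shRNA2 and 23.3, 21.8 and 24.4 in NC libraries. Every shRNA2 library lay far below every NC library, and shRNA2 replicate 2 was the lowest. The means were 6.65 ± 1.19 CPM in shRNA2 and 23.2 ± 1.28 CPM in NC cells (SD, n = 3 each), a log2 fold change of -1.80 ± 0.15 (SE; edgeR adjusted p = 0.000101). In bulk RNA, fewer cells expressing a gene and less RNA per cell cannot be told apart.

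The other listed antagonists were scarce. GREM1, gremlin, which binds BMP2 and BMP4, held 1, 0 and 0 counts in the shRNA2 libraries and 0, 0 and 1 in the NC libraries (chromosome 15, 32717974 to 32745107, plus strand), so it was not measurable at this depth and no fold is given. FST, follistatin, which binds activin more tightly than BMPs (chromosome 5, 53480409 to 53487134, plus strand), held 10, 4 and 18 counts in the shRNA2 libraries and 4, 3 and 3 in the NC libraries. The higher values of FST lay in shRNA2 replicates 1 and 3, while replicate 2 lay within the NC range in CPM. Summed over libraries and scaled for depth, the ratio of FST counts was 3.04 (95% exact interval 1.46 to 6.92, counting error only), and without the low-count filter its edgeR adjusted p was 0.111.

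Most fibroblast markers were also higher in those 2 libraries than in shRNA2 replicate 2. Of 15 markers 9 were tested, of which 5 rose (COL1A1, COL1A2, COL3A1, DCN and SPARC) and none fell at the adjusted threshold. TAGLN was lower at an unadjusted p under 0.05, and DESeq2 called 0 falls. Across all tested genes 9.71% rose and 7.58% fell by edgeR. Summed over the 15, the markers came to 85.5, 51.9 and 72.3 CPM in shRNA2 replicates 1 to 3 and 36.7, 40.7 and 34.9 CPM in NC replicates 1 to 3. Among the shRNA2 libraries 12 of the 15 markers were lowest in replicate 2, all but FBN1, LUM and PDGFRB. FBN1 was highest there, at 25.3, 35 and 23.2 CPM in shRNA2 replicates 1 to 3, and so made up most of that library's sum. LUM held 13, 17 and 28 counts in shRNA2 and 9, 8 and 8 in NC libraries, and PDGFRB 10, 12 and 17 in shRNA2 and 4, 5 and 4 in NC libraries. PDGFRA held 11, 2 and 15 counts in shRNA2 and 2, 2 and 3 in NC libraries, THY1 held 26, 3 and 25 in shRNA2 and 0, 4 and 0 in NC libraries, and MFAP5 held 4, 0 and 2 in shRNA2 and 0, 1 and 0 in NC libraries. The part of such cells or transcripts in the FST counts was not tested. From shRNA2 replicate 2 alone the FST ratio to the NC libraries was 1.12 (95% exact interval 0.257 to 3.89). NOG was lower still in that library: its log2 fold change with shRNA2 replicate 2 alone was -2.12 ± 0.18. Here and in every fit with that single library, the spread comes from the NC libraries only, and the lone library is assumed to vary like them. Spread beyond counting noise (chi-square over degrees of freedom) was 18.4 to 34.6 between shRNA2 libraries and 2.65 to 15 between NC libraries. The SEs of those fits may therefore be too small.

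**Figure D1:**
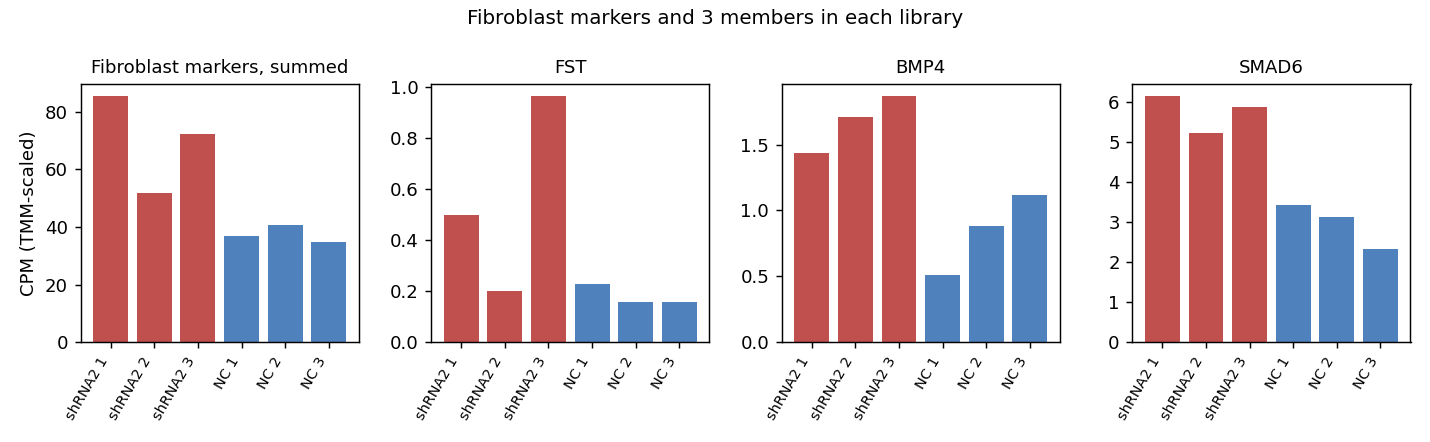
Level in CPM in each library (x axis, shRNA2 replicates 1 to 3 in red and then NC replicates 1 to 3 in blue) of 15 summed fibroblast markers, FST, BMP4 and SMAD6. The marker sum is 85.5, 51.9 and 72.3 CPM in shRNA2 replicates 1 to 3 and 34.9 to 40.7 CPM in NC libraries. FST is at 0.497, 0.202 and 0.964 CPM in shRNA2 replicates 1 to 3. BMP4 and SMAD6 are above all NC libraries in every shRNA2 library. The part of fibroblast transcripts in these genes was not tested.

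Both ligands of the set were low. BMP4 (chromosome 14, 53949736 to 53958761, minus strand), which signals through BMPR1A, BMPR1B and BMPR2, held 29, 34 and 35 counts in the shRNA2 libraries and 9, 17 and 21 in the NC libraries. All shRNA2 libraries were above all NC libraries, but the NC values themselves ranged widely. BMP4 averaged 1.68 ± 0.219 CPM in shRNA2 and 0.837 ± 0.304 CPM in NC cells (SD, n = 3 each), with a log2 fold change of 0.99 ± 0.33 that did not pass (SE; edgeR adjusted p = 0.061). It passed with GC content and length trends removed (edgeR adjusted p = 0.0294), a fit that called 28.7% of all genes. It did not pass under scaling, tool or filter alternatives or with a library left out (edgeR or DESeq2 adjusted p = 0.0502 to 0.22). With shRNA2 replicate 2 alone, the log2 fold change of BMP4 was 1.02 ± 0.46. The part of fibroblast transcripts in the BMP4 counts was not tested.

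BMP2, a close relative of BMP4 (chromosome 20, 6767664 to 6780280, plus strand), held 12, 8 and 9 counts in the shRNA2 libraries and 5, 7 and 5 in the NC libraries. The groups did not overlap, but the ratio of summed counts, 1.62, had a 95% exact interval of 0.86 to 3.14. BMP2 was not tested in the filtered fit and gave an edgeR adjusted p of 0.559 without the filter.

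Of the inhibitory SMADs, SMAD6 passed the threshold and SMAD7 did not. SMAD6, which blocks BMP receptors and SMAD1 in preference to the TGF-beta branch (chromosome 15, 66702228 to 66782848, plus strand), rose. It held 124, 104 and 110 counts in the shRNA2 libraries and 60, 60 and 44 in the NC libraries, or 6.16, 5.24 and 5.89 CPM in shRNA2 and 3.42, 3.12 and 2.34 CPM in NC libraries. No shRNA2 library came near an NC library. The means of SMAD6 were 5.77 ± 0.474 CPM in shRNA2 and 2.96 ± 0.559 CPM in NC cells (SD, n = 3 each), a log2 difference of 0.96 ± 0.20 (SE; edgeR adjusted p = 0.00915). Its call held in every alternative fit, with log2 fold changes of 0.82 to 1.07 and edgeR adjusted p-values up to 0.0471, reached without NC replicate 3. With shRNA2 replicate 2 alone it was 0.83 ± 0.27, with the spread from the NC libraries only. A sense intronic gene on the same strand, AC013564.1, overlaps SMAD6, and its part in the SMAD6 counts was not tested.

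SMAD7, which inhibits both the BMP and the TGF-beta branch (chromosome 18, 48919853 to 48952052, minus strand), held 193, 155 and 148 counts in the shRNA2 libraries and 177, 194 and 219 in the NC libraries. In CPM, SMAD7 stood at 9.60, 7.81 and 7.93 in shRNA2 and 10.1, 10.1 and 11.6 in NC libraries. The groups lay next to each other without overlap. The log2 fold change of SMAD7 was -0.33 ± 0.15 and did not pass (edgeR adjusted p = 0.149).

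Among the ID genes, ID1 was abundant, ID2 intermediate and ID3 close to undetected. ID1 (chromosome 20, 31605283 to 31606515, plus strand) held 1273, 1139 and 1432 counts in the shRNA2 libraries and 968, 931 and 1240 in the NC libraries. Its CPM values were 63.3, 57.4 and 76.7 in shRNA2 and 55.2, 48.4 and 65.9 in NC libraries, and the groups overlapped. ID1 averaged 65.8 ± 9.89 CPM in shRNA2 and 56.5 ± 8.80 CPM in NC cells (SD, n = 3 each), with a log2 fold change of 0.22 ± 0.14 (edgeR adjusted p = 0.29). That value moved with the processing. With GC content and length trends removed it was 0.43 ± 0.09 and passed (edgeR adjusted p = 0.00513), in a fit that called 28.7% of all genes. With shRNA2 replicate 2 alone it was 0.02 ± 0.16. No alternative but the fit with those trends removed gave a call for ID1.

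ID2 (chromosome 2, 8678845 to 8684453, plus strand) held 153, 119 and 151 counts in the shRNA2 libraries and 175, 171 and 200 in the NC libraries. Its CPM values, 7.61, 6 and 8.09 in shRNA2 and 9.97, 8.89 and 10.6 in NC libraries, did not overlap. The log2 fold change of ID2 was -0.44 ± 0.16, short of the threshold (edgeR adjusted p = 0.081). With shRNA2 replicate 2 alone ID2 was at -0.71 ± 0.20 (edgeR adjusted p = 0.0229, with the spread from the NC libraries only, a fit that called 31.6% of all genes), while the other scaling, tool, filter, trend and left-out-library fits gave 0.055 to 0.251. An antisense gene, ID2-AS1, overlaps ID2; it held 4 to 8 counts a library, and without known strandedness its reads and those of ID2 cannot be told apart. ID3 (chromosome 1, 23557918 to 23559794, minus strand) held 2, 3 and 6 counts in the shRNA2 libraries and 0, 1 and 10 in the NC libraries. The ratio of summed ID3 counts was 0.949 with a 95% exact interval of 0.373 to 2.41, so no difference was detectable at this depth.

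**Figure D2:**
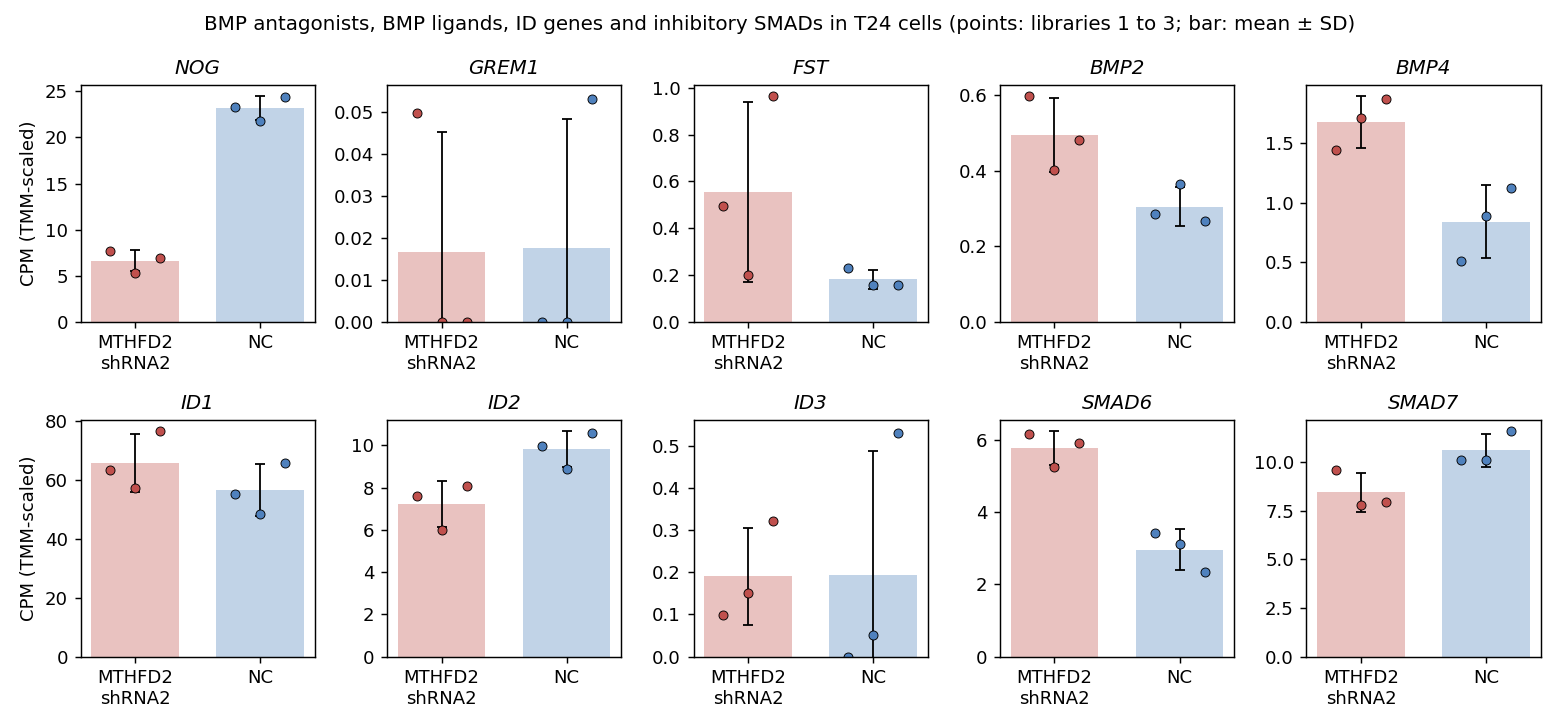
CPM on TMM-scaled library sizes (y axis, own scale per gene) of the 10 genes in the shRNA2 (left, red) and NC (right, blue) groups; points are libraries 1 to 3, bars the mean and whiskers 1 SD, with the lower whisker ending at 0 where it would go below. NOG sits at 5.34 to 7.66 CPM in shRNA2 and 21.8 to 24.4 CPM in NC libraries, SMAD6 shows the opposite order, and GREM1 and ID3 rest on a few counts.

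**Figure D3:**
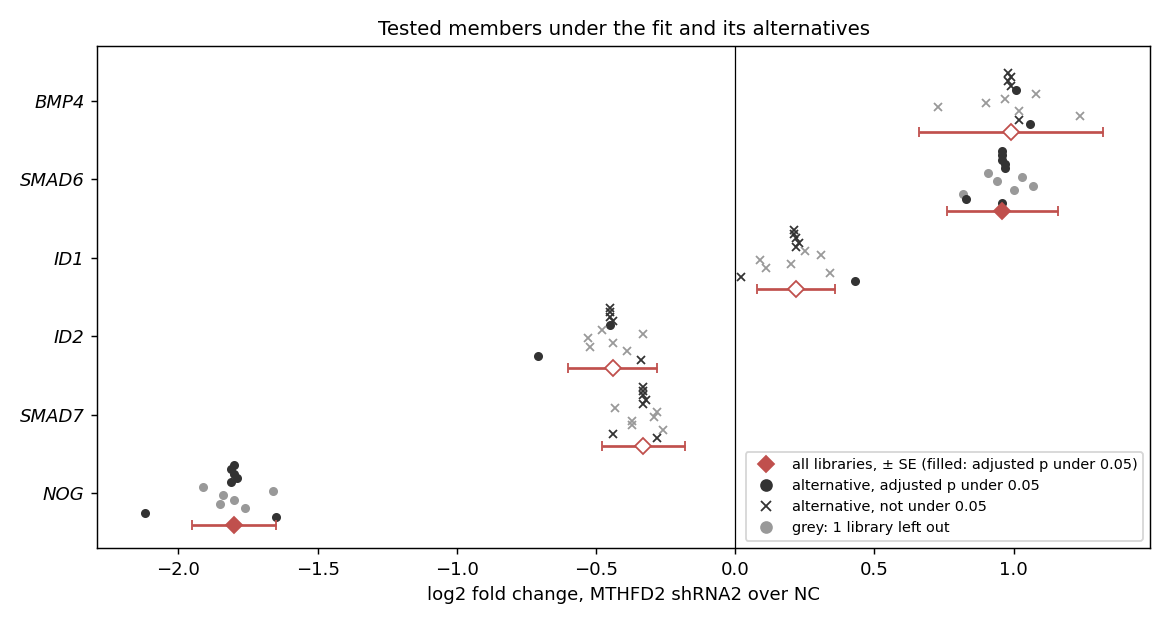
Log2 fold change, shRNA2 over NC (x axis), of the 6 tested genes with all libraries (red diamonds, whiskers 1 SE) and under 13 alternative fits (dark marks) of which 6 leave out a library (grey); circles mark an adjusted p under 0.05 and crosses none. NOG and SMAD6 passed in every fit shown, BMP4 and ID2 in 2 each, ID1 in 1 and SMAD7 in none.

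Levels can be compared between genes only per length, here as CPM per kilobase of annotated exons, which understates a gene expressed as its shorter isoforms. ID1 led the order with 53.4 ± 8.02 in shRNA2 and 45.8 ± 7.14 in NC cells (SD, n = 3 each). In NC cells NOG came next at 12.2 ± 0.675 CPM per kilobase, above ID2 at 4.46 ± 0.397 and SMAD7 at 2.11 ± 0.177. In shRNA2 cells NOG, at 3.52 ± 0.627 CPM per kilobase, no longer stood apart from ID2, at 3.28 ± 0.496, as their libraries overlapped. SMAD7, at 1.68 ± 0.198 in shRNA2 cells, came after them, then SMAD6 at 0.673 ± 0.0553 and BMP4 at 0.544 ± 0.071, whose ranges adjoined without overlap. In NC cells SMAD6 stood at 0.346 ± 0.0653 and BMP4 at 0.272 ± 0.0986, with overlapping libraries. FST, BMP2 and ID3 all lay under 0.2 on average in either group with overlapping libraries, and GREM1 was last.

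The genes nearest to NOG in profile were found by the smallest root mean square difference of log2 CPM over the 6 libraries, each gene centred on its NC mean, among genes with a mean of at least 1 on that scale. They were CCL20, a chemokine (0.124), the metallothionein MT1E (0.153), whose reads may be shared with near-identical relatives, and SH2D5 (0.167). CCL20 stood at 1.85 CPM in shRNA2 and 6.25 CPM in NC cells, MT1E at 167 CPM in shRNA2 and 545 CPM in NC cells, and SH2D5 at 20.9 CPM in shRNA2 and 65.5 CPM in NC cells. Nearest to ID1 were the pseudogene TMSB4XP8 (0.038), COQ10A and GSTM4 (0.044 each), none of which passed the edgeR test (adjusted p = 0.268, 0.295 and 0.326). GREM1 was not tested and has no such neighbours.

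A wider list of 87 BMP pathway genes, set by role but with earlier results of this comparison known, had 50 tested members. For that reason nothing is read from its shares or its median beside those of all genes. Of these 13 rose and 4 fell, or 17 in all, beside 9.71% rising and 7.58% falling among all genes, and their median log2 fold change was 0.18 against 0.01 over all tested genes. The count of 17, or 34% of those tested, was 8 (15.7%) without NC replicate 1, 11 (22%) without NC replicate 2 and 9 (18%) without NC replicate 3. Calls over all genes moved the same way, to 7.03%, 11.8% and 6.92% in those fits. With shRNA2 replicate 2 alone 15 rose and 5 fell, beside 16.1% and 15.5% of all genes. With GC content and length trends removed 10 rose and 7 fell, beside 11.5% rising and 17.2% falling among all genes.

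Of 6 tested ligands among 18 listed, 2 rose and none fell by edgeR, beside 9.71% rising and 7.58% falling among all genes. In the ligand list 0 were lower at an unadjusted p under 0.05, and 0 fell by DESeq2. BMP6, a ligand that acts through ACVR1 and the BMP type II receptors, rose. It held 315, 310 and 309 counts in the shRNA2 libraries and 145, 167 and 159 in the NC libraries. The groups were far apart and tight, at 15.9 ± 0.525 CPM in shRNA2 and 8.46 ± 0.210 CPM in NC cells (SD, n = 3 each), and BMP6 differed by 0.91 ± 0.13 on the log2 scale (SE; adjusted p = 0.00115 by edgeR). GDF15, a stress-induced distant relative that signals through GFRAL and not through BMP receptors, rose by 0.35 ± 0.11 (edgeR adjusted p = 0.0488). That call was lost with RLE scaling (edgeR adjusted p = 0.0534), with shRNA2 replicate 2 alone and in 5 of 6 fits that each dropped a library; over all alternatives its log2 fold change ran from 0.24 to 0.50. BMP8A and BMP8B are near-identical and may share reads; neither passed.

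Among 6 tested antagonists and extracellular modulators of 19 listed, 2 rose and none fell by edgeR, beside 9.71% rising and 7.58% falling among all genes. In that list 1 was lower at an unadjusted p under 0.05 and 1 by DESeq2. TWSG1, twisted gastrulation, which binds BMPs together with chordin, held 2733, 3323 and 3172 counts in the shRNA2 libraries and 1845, 1824 and 1663 in the NC libraries. The log2 difference was 0.72 ± 0.12 (SE; adjusted p = 0.00277 by edgeR). FSTL1, a secreted glycoprotein of the follistatin family, rose by 1.00 ± 0.13 (edgeR adjusted p = 0.000861), to 59.3 ± 9.77 CPM in shRNA2 against 29.6 ± 1.85 CPM in NC cells (SD, n = 3 each). Fibroblasts also express FSTL1. It held 978, 1345 and 1147 counts in shRNA2 replicates 1 to 3 and 527, 601 and 520 in NC replicates 1 to 3, highest in shRNA2 replicate 2, as was the fibroblast marker FBN1 and unlike the other 14 markers; the part of such transcripts in FSTL1 was not tested. Chordin itself, CHRD, held 0 to 4 counts a library.

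Of 10 tested receptors and co-receptors among 14 listed, 4 rose and 1 fell, beside 9.71% rising and 7.58% falling among all genes. TGFBR3, betaglycan, a co-receptor that presents TGF-beta, inhibin and BMP ligands, held 300, 455 and 331 counts in the shRNA2 libraries and 167, 170 and 115 in the NC libraries. It rose by 1.18 ± 0.20 on the log2 scale (SE; adjusted p = 0.00294 by edgeR). The type II receptor ACVR2B rose by 0.70 ± 0.18 and NEO1, neogenin, the receptor of repulsive guidance molecules, by 0.68 ± 0.20. ENG, endoglin, a co-receptor for BMP9 and BMP10 in endothelium, fell by 0.47 ± 0.13 on the log2 scale. Each of ACVR2B, NEO1 and ENG lost its call when any of 3 of the 6 libraries was dropped. The endothelial marker CDH5 fell too by edgeR, at 16, 15 and 8 counts in shRNA2 and 27, 33 and 24 in NC libraries. DESeq2 called 0 falls among the 7 endothelial markers, of which only CDH5 was tested. Among the untested markers VWF was lower in shRNA2 libraries, while PECAM1, KDR, TEK, CLDN5 and EMCN overlapped between the groups. The relation of CDH5 to ENG was not tested. BMPR2, the main BMP type II receptor, named after its values were seen, rose by 0.58 ± 0.13 (edgeR adjusted p = 0.0134). It did not pass without NC replicate 3 (0.48 ± 0.14, edgeR adjusted p = 0.0619) and was at 0.33 ± 0.07 with GC content and length trends removed. The type I receptors BMPR1A, BMPR1B and ACVR1 did not pass.

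Of 15 tested SMADs and SMAD regulators among 16 listed, 4 rose and 1 fell, beside 9.71% rising and 7.58% falling among all genes. SMAD9, the least abundant of the SMADs that BMP receptors activate, held 28, 42 and 35 counts in the shRNA2 libraries and 8, 14 and 7 in the NC libraries. It stood at 1.79 ± 0.369 CPM in shRNA2 and 0.519 ± 0.186 CPM in NC cells (SD, n = 3 each), a log2 fold change of 1.77 ± 0.36 (SE; edgeR adjusted p = 0.00755), and passed in all 13 alternative fits. SMAD5 rose by 0.42 ± 0.13 and SKIL, a SMAD corepressor, by 0.46 ± 0.14. NEDD4L, a ubiquitin ligase that acts on activated SMAD2 and SMAD3, fell by 0.42 ± 0.10 on the log2 scale. PPM1A, a phosphatase reported to act on SMADs and named after its values were seen, rose by 0.36 ± 0.11. With GC content and length trends removed SMAD5, SKIL and PPM1A no longer passed, at 0.20, 0.25 and 0.10 on the log2 scale (edgeR adjusted p = 0.0782, 0.0644 and 0.402). SMAD5 also lost its call in 4, and SKIL and PPM1A each in 5, of the 6 fits that dropped a library, and NEDD4L in the fit without NC replicate 1 (edgeR adjusted p = 0.0769). SMAD1, at 34.6 ± 2.31 CPM in shRNA2 and 29.6 ± 2.47 CPM in NC cells (SD, n = 3 each), did not pass, and neither did SMAD4.

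Other transcripts that BMP signalling is known to raise in various tissues numbered 14, of which 7 were tested and none passed by edgeR, with 0 at an unadjusted p under 0.05 in either direction and 0 by DESeq2. The most abundant were HES1, a helix-loop-helix repressor also driven by Notch, at 24.8 ± 5.01 CPM in shRNA2 and 26.4 ± 2.13 CPM in NC cells, and RUNX2, a bone regulator, at 6.44 ± 0.500 CPM in shRNA2 and 5.37 ± 0.215 CPM in NC cells (SD, n = 3 each). Their log2 fold changes were -0.09 ± 0.15 and 0.26 ± 0.16 (SE). The median of the 7 was 0.09. Across all tested genes 17.3% passed by edgeR. A p that misses the threshold does not show that these genes were unaltered. ID4, the remaining ID gene, held 2 to 5 counts a library.

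Among 6 partners of ID proteins, 1 rose and 2 fell, beside 9.71% rising and 7.58% falling among all genes. TCF4, an E protein that ID proteins sequester, held 191, 248 and 183 counts in the shRNA2 libraries and 59, 107 and 69 in the NC libraries. It rose by 1.33 ± 0.21 (SE; edgeR adjusted p = 0.00233), to 10.6 ± 1.65 CPM in shRNA2 against 4.20 ± 1.19 CPM in NC cells (SD, n = 3 each). The other E proteins, TCF3 (-0.34 ± 0.11) and TCF12 (0.28 ± 0.11), did not pass (edgeR adjusted p = 0.0576 and 0.109). The TCF3 result depended on the fit. TCF3 passed by DESeq2 (adjusted p = 0.0328) and with GC content and length trends removed (edgeR adjusted p = 0.0105). It did not pass with RLE scaling (edgeR adjusted p = 0.0542), and ran from 0.0194 to 0.177 by edgeR with a library left out. ETS1, an ETS factor, was at 160 ± 16.0 CPM in shRNA2 and 259 ± 14.9 CPM in NC cells (SD, n = 3 each) and fell by 0.70 ± 0.11 on the log2 scale. ETS2 fell by 0.41 ± 0.11, a call lost when any of 4 of the 6 libraries was dropped.

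**Figure D4:**
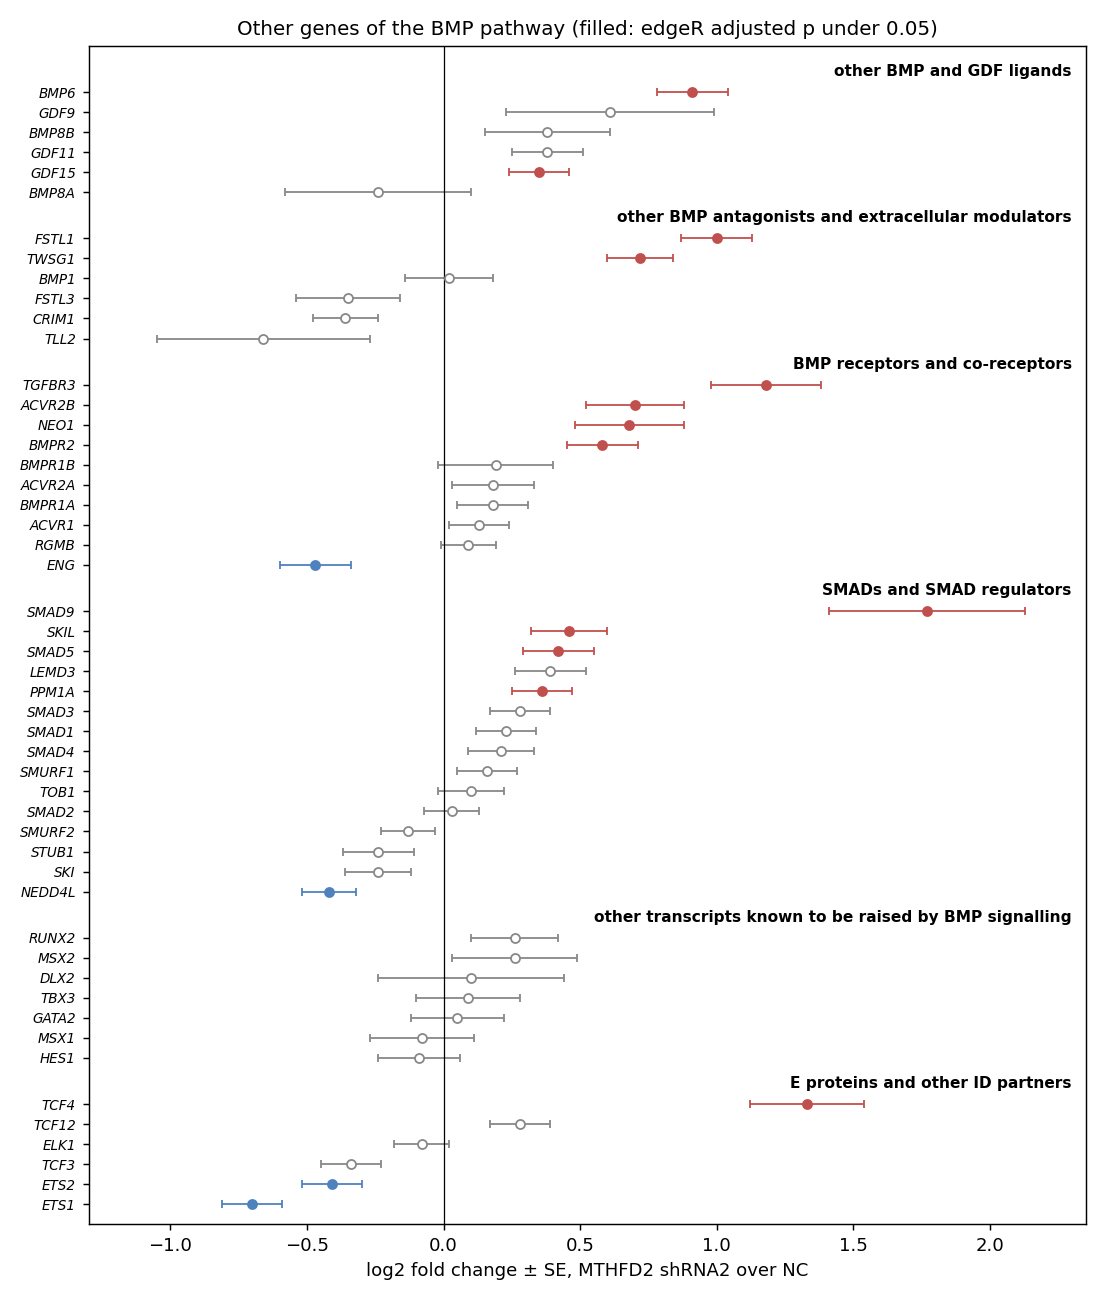
Log2 fold change ± SE, shRNA2 over NC (x axis), of the 50 tested genes of the wider BMP pathway list, grouped by role; filled red points rose and filled blue points fell at an edgeR adjusted p under 0.05, and open points did not pass. SMAD9 (1.77), TCF4 (1.33), TGFBR3 (1.18), FSTL1 (1.00) and BMP6 (0.91) lie farthest to the right among the filled points, and the 7 transcripts that BMP signalling raises lie within -0.09 to 0.26.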

How the data were processed

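The submitters' processing notes name HISAT2 (2.0.4) and GRCh38; how reads were counted, on which annotation and with or without strand, is not given in the sources used here. Raw counts for 54261 gene symbols were deposited by the authors, without normalization. A count was present for 25308 of them, and all 6 columns were used. Library totals were 17801990 to 19978392. The genes described and all lists were chosen with earlier results of these data known.

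After filterByExpr and TMM scaling, shRNA2 was compared with NC by the robust quasi-likelihood test of edgeR 4.0.16 (limma 3.58.1, R 4.3.3). The p-values were adjusted by Benjamini-Hochberg over all 13896 genes kept, and calls were made under 0.05. A standard error is the log2 fold change's size over the square root of F. The procedure was tested on simulated counts first. Exact intervals of count ratios are conditional binomial at 95%. log2 CPM used a prior count of 2. GENCODE 29 (GRCh38), matched by symbol, gave positions, exonic lengths and GC content, and RefSeq (GRCh38.p14) the upstream sequences. The listed gene HJV is in the table as HFE2. Alternatives were RLE scaling, DESeq2 1.42.0, no low-count filter, at least 1 CPM in 3 libraries, a replicate block, dropping each library in turn, shRNA2 replicate 2 alone, GC content and length trends removed, and a threshold of 0.01. Besides the 10 genes and MTHFD2, up to 4 genes of each wider list were named by size of change among those that passed, with each direction present, or the 2 most abundant where none passed, and others only where the text says so or to give a role's remaining members or a marker. Libraries of a group differed by more than counting noise. Each was treated as 1 sample, though that spread may be technical. Chi-square over degrees of freedom was 18.4 to 34.6 between shRNA2 libraries and 2.65 to 15 between NC libraries (genes with at least 20 counts).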

Additional observations from a re-analysis of the deposited data

How the results depend on the processing

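The calls of NOG and SMAD6 held in all 13 alternative fits, and none of the 78 values of the 6 tested genes changed sign. Of the 10 genes, 2 were called in each fit leaving out a library. With the replicate block 4 were called (BMP4 and ID2 added, edgeR adjusted p = 0.0139 and 0.0129), in a fit that called 36.4% of all tested genes. Removal of GC content and length trends also gave 4 (BMP4 and ID1 added), in a fit that called 28.7%, against 17.3% in the main fit. The wider list had 8 to 17 calls with a library left out, in fits that called 6.92% to 18.6% of all tested genes. At a threshold of 0.01 it had 7 calls, where 5.39% of all genes were called. Over all genes the count of 2402 became 5062 with the replicate block, 4390 with shRNA2 replicate 2 alone and 749 at a threshold of 0.01. It ran from 986 to 2645 with a library left out: 986 without NC replicate 3, 1003 without NC replicate 1 and 1469 without shRNA2 replicate 2. The cause was not tested. Same-numbered libraries correlated at -0.02, 0.30 and 0.35 in their deviations from the group means, and 2 of 3 shRNA2 libraries correlated best with their own number. The labels do not say what a shared number means, and the main fit did not pair the samples by it. Whether same-numbered libraries share an effect was not tested. Counting depth limits GREM1, FST, BMP2 and ID3.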
